A study of Mus musculus with 12 samples.

Results

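Nr5a1 Slc17a6 nuclei were excitatory nuclei that held the transcript of Nr5a1, the gene of steroidogenic factor 1, in droplet libraries of mouse brain nuclei. A nucleus was taken when it had between 500 and 10000 detected genes, at least 1 unique molecular identifier (UMI, a tag that counts a captured transcript once) of Nr5a1, at least 1 of Slc17a6 (the vesicular glutamate transporter of hypothalamic and thalamic neurons), none of Gad1 or Gad2 (the enzymes that make GABA) and fewer than 2 of Mobp, an oligodendrocyte gene. The rule selected 240 of 184957 nuclei, which is 0.130% of all retained nuclei and 0.776% of the 30920 excitatory Slc17a6 nuclei. The other 30680 excitatory Slc17a6 nuclei, which met the same rule but had no Nr5a1 UMI, served as the reference.

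The tissue was labelled as the hippocampus of the left side and came from 12 mice, all female, with 1 library per mouse and 3 mice in each of 4 groups: 3xTg-AD mice at 6 months, wild-type (WT) mice at 6 months, 3xTg-AD mice at 12 months and WT mice at 12 months. 3xTg-AD mice carry human APP and MAPT transgenes with disease mutations (APPSwe and a mutated tau) together with a further mutated allele at a mouse gene, and develop amyloid and tau pathology, while the WT mice were littermates without them. All mice of every group were perfused with saline under Avertin, and the hippocampi were snap-frozen before nuclei were isolated and sorted by flow cytometry to remove debris. The series asked how the 2 genotypes differ at each age.

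Neurons that express Nr5a1 in the adult brain are known from the ventromedial nucleus of the hypothalamus, where steroidogenic factor 1 is needed for the nucleus to form and marks most of its dorsomedial and central cells. These neurons release glutamate, carry receptors for leptin and sex steroids, sense glucose, and take part in energy balance, defensive behaviour and female mating. The nucleus lies below the thalamus and outside of the hippocampus, the tissue that the labels name. Apart from the brain, Nr5a1 is active in gonadotropes of the pituitary, the adrenal cortex and the gonads.

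The libraries held between 79177051 and 128323908 UMIs over 11352 to 19811 retained nuclei, and the members of a library summed to between 135957 and 349199 UMIs. The median member had 10408 UMIs and 3904.5 genes, against 8970 UMIs in the reference nuclei, and the median share of mitochondrial UMIs was 0.00455% (highest member, 0.580%). Of 181379 distinct barcodes, 4216 occurred in more than 1 library and none in more than 3. A doublet caller marked 20 of the 240 members.

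All 12 libraries contributed members. The 3xTg-AD libraries held 16, 25 and 22 members at 6 months and 18, 13 and 30 at 12 months. The WT libraries held 11, 23 and 25 members at 6 months and 13, 19 and 25 at 12 months. As a share of retained nuclei this was 0.0721% in the lowest library (WT, 12 months, replicate 4; exact binomial 95% interval 0.0384 to 0.123%) and 0.220% in the highest (WT, 12 months, replicate 12; 0.143 to 0.325%), so the extremes both belonged to 1 group. Such intervals cover counting error only.

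**Figure D1:**
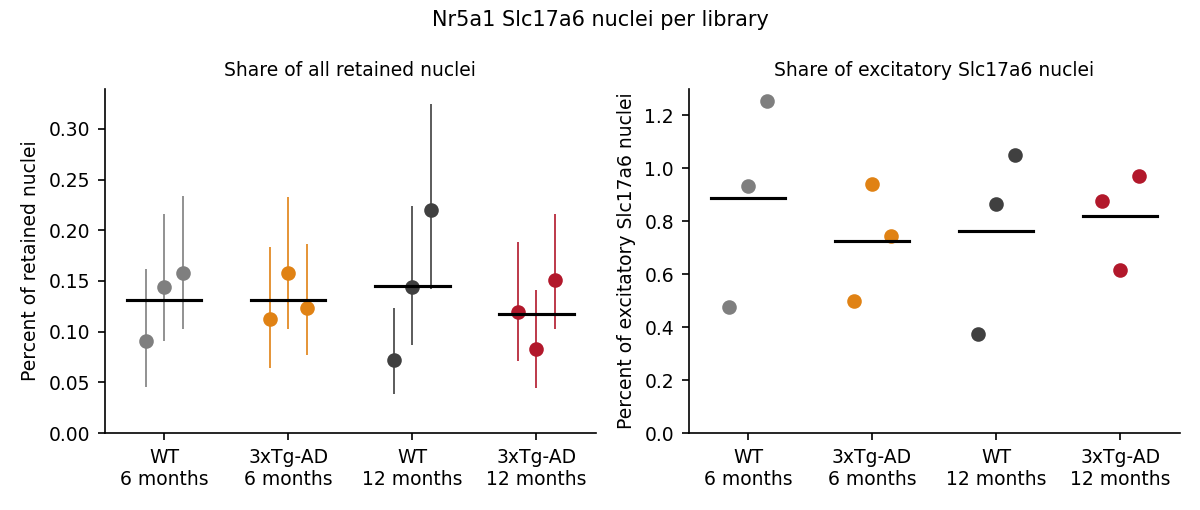
Share of Nr5a1 Slc17a6 nuclei per library, on the left as a percent of all retained nuclei with exact binomial 95% intervals and on the right as a percent of excitatory Slc17a6 nuclei (no intervals drawn). Points are libraries, grouped by genotype and age in months, and black bars are group means; the 4 groups overlap on both scales, with WT at 12 months spanning 0.0721 to 0.220% of retained nuclei.

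Selection rested on few transcripts per nucleus. The 240 members held 312 Nr5a1 UMIs: 187 had the single UMI that the rule requires, 37 had 2, 16 had 3 or more, and the highest had 5. Slc17a6 gave 536 UMIs, with 98 members at the minimum of 1, and 5 members had 1 Mobp UMI, just inside that limit. Outside the rule stood another 230 nuclei with an Nr5a1 UMI: 168 had no Slc17a6, 51 had Gad1 or Gad2 as well, and 11 had 2 or more Mobp UMIs.

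Free RNA in droplets can give single UMIs to nuclei that do not express a gene, so the share of nuclei with an Nr5a1 UMI was set beside that in classes that should lack it. It was 0.776% (95% interval 0.681 to 0.880%, median 8984.5 UMIs) in excitatory Slc17a6 nuclei. It was 0.153% (0.0836 to 0.256%, median 8135 UMIs) in nuclei with Slc17a7 and no Slc17a6, the transporter of cortical and hippocampal excitatory cells, and 0.0695% (0.0466 to 0.0999%, median 7808 UMIs) in inhibitory nuclei. Oligodendrocyte nuclei had 0.0661% (0.0243 to 0.144%, median 2976 UMIs) and astrocyte nuclei 0.0185% (0.00382 to 0.0541%, median 2752 UMIs). The interval of the Slc17a6 nuclei lay above those of all 4 other classes. Of these, the Slc17a7 and inhibitory nuclei were of near depth and both glial classes shallower. The intervals pool nuclei of all libraries and cover counting error only, and the share of Slc17a6 nuclei ran from 0.374 to 1.26% by library. Slc17a6 nuclei with an Nr5a1 UMI are the members themselves, chosen by that UMI. What part free RNA had in the members was not tested. With every nucleus thinned to 2000 UMIs, 26 nuclei still met the rule (0.0167% of 155353 nuclei), and 29604 shallower nuclei were left out, between 6185 and 8890 per group.

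Nr5a1 lies on chromosome 2 (GRCm38, chr2:38692656-38714542, minus strand) and overlaps Nr5a1os, an antisense transcript on the other strand. The authors counted reads with Cell Ranger from a stated 3′ kit. Whether any read of Nr5a1os entered the count of Nr5a1 was not tested. The label was checked on genes that the rule did not use. As the nuclei were chosen by a count of these same nuclei, all comparisons of members with reference nuclei are descriptions, without a test.

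Of 6 further genes known from ventromedial hypothalamic neurons, all 6 had a higher mean level in members than in reference nuclei and 4 were higher in each of the 12 libraries. Over all 28278 genes with a UMI, 1.65% were higher in each library and 28.4% had a mean log2 ratio above 0. These shares take in genes with no UMI in members. Of the genes with a UMI in at least 10% of members, as 5 of the 6 were, 4.84% were higher in each library. Levels are in CPM, the UMIs of a gene for every 1000000 UMIs of the summed nuclei, and a log2 ratio is the mean over libraries of the log2 of members over reference nuclei after adding 5 CPM to both.

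Hmcn2, which encodes the extracellular matrix protein hemicentin 2, stood at 109 ± 24.5 CPM (SD, n = 12 libraries) in members, from 59.8 to 157, and at 2.96 to 7.66 CPM in reference nuclei. Glra1, the alpha 1 subunit of the glycine receptor, stood at 141 ± 40.3 CPM, from 86.6 to 213, against 25.4 to 44.4. Both genes had every member library above every reference library, and they were detected in 53.3% and 61.2% of members against 4.05% and 21.0% of reference nuclei. Adcyap1, the gene of the neuropeptide PACAP, had a mean of 32.0 CPM against 12.6, and Nkx2-1, a transcription factor of the ventral hypothalamus, had 17.4 CPM against 3.18, both higher in all 12 libraries.

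Fezf1, a zinc finger factor needed for ventromedial neurons to develop, had 16.1 CPM against 1.11 and was higher in 11 libraries, with no UMI among the members of the other one. Nr0b1, which encodes the Nr5a1 partner DAX1, had 8 UMIs in all members (3.03 CPM) and 0.0910 CPM in reference nuclei. Hmcn2 and Glra1 had been taken as markers of these nuclei from earlier results of these data, so their levels are no independent check of the label, which rests on the other 4 genes.

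Markers of other sources differed by list. The pituitary genes Cga, Lhb, Fshb and Gnrhr had no UMI in any member, where 0 of 240 members allows a share with a UMI of up to 1.25% for each. Pitx1, the remaining gene of the pituitary list, had a higher mean in members. The list summed to 0 to 5.64 CPM in members (median 0) and 0.236 to 1.16 CPM in reference nuclei. Of 6 paraventricular genes, Sim1, Avp, Oxt, Otp and Crh were lower in members in all 12 libraries, and Otp and Crh were at 0, with 1.55 and 0.636 CPM in reference nuclei. Members summed to 135957 to 349199 UMIs per library, so at such low levels a 0 does not show absence. From the lateral hypothalamus, Lhx9 had 5.49 CPM against 39.8, and the 5 genes of the habenula summed to 0 to 8.72 CPM against 13.7 to 31.8. The 5 arcuate genes summed to 9.53 to 44.1 CPM (median 21.5) against 22.6 to 31.5 (median 25.5): Npy and Kiss1 were at 0, Pomc had 2 UMIs, Ghrh had a mean of 2.61 against 0.502 CPM from 2 libraries, and Agrp gave most of the sum with 18.7 against 22.4 CPM. Across all genes, 9.63% were lower in each library, a count that takes in genes with no UMI in members.

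Further lists were compared in the same way. The 4 genes of tanycytes and ependymal cells summed to 42.7 to 135 CPM in members and 12.1 to 31.4 CPM in reference nuclei, with no overlap. Of these, Dnah12 (41.5 against 3.36 CPM) was higher in all 12 libraries and Col23a1 (19.6 against 8.66 CPM) in 9, while Spag16 was higher in 4 and Rax, a tanycyte factor, had no UMI. The 5 striatal genes summed to 49.9 to 169 against 38.0 to 61.2 CPM, most of it from Rgs9, a regulator of G protein signalling (77.7 against 31.1 CPM, higher in 12 libraries). Of the 5, 4 had a higher mean in members, while Drd2, a dopamine receptor, had 6.91 against 11.8 CPM. The lists for dentate granule cells (105 to 186 against 108 to 146 CPM), telencephalic excitatory neurons (11.1 to 139 against 31.1 to 68.2 CPM), microglia (21.6 to 82.6 against 46.6 to 64.5 CPM) and oligodendrocyte precursors (0 to 39.5 against 12.8 to 23.4 CPM) overlapped in range. Within these sums, 1 dentate gene was higher and 1 lower in all 12 libraries, 1 telencephalic gene was higher and 2 lower, and 1 microglial gene was lower. Among all genes with a UMI, 1.65% were higher and 9.63% lower in each library. Vascular genes gave 0 to 30.5 against 19.0 to 67.9 CPM, with Cldn5 at 0. What part cells of these kinds had in the values of the members was not tested.

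Oligodendrocyte, astrocyte and thalamic transcripts were present. The 3 oligodendrocyte genes that the rule did not use (Mbp and Mog among them) summed to 47.0 to 264 CPM in members and 54.4 to 181 CPM in reference nuclei, with none at 0, and the 4 astrocyte genes (Slc1a2, Slc1a3, Gpc5, Aqp4) to 86.6 to 1112 CPM against 677 to 950. The 4 thalamic genes (Tcf7l2, Lef1, Prkcd, Rora) summed to 1203 to 3391 CPM in members, most of it from Rora, against 3238 to 3816 in reference nuclei. Tcf7l2, a factor of the Wnt pathway and a marker of thalamic neurons, had 135 CPM in members and 472 in reference nuclei, with all 12 libraries lower. The highest thalamic sum belonged to the WT library at 6 months with the fewest members, replicate 3 (3391 CPM from 11 members), and the next WT library stood at 1718 CPM. What part glial or thalamic RNA had in the values of the members was not tested. The nuclei are called Nr5a1 Slc17a6 nuclei here, with a ventromedial hypothalamus-like set of markers.

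The genes that set members apart most were ranked by mean log2 ratio among those with a UMI in at least 10% of members and a higher level in all 12 libraries. Of 9560 genes detected at that share, 463 (4.84%) were higher in every library, and the 30 with the highest ratio are described as leading genes. Over all genes detected at that share, the median log2 ratio was -0.04.

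After Hmcn2 (log2 ratio 3.42) came Sox1ot, a long noncoding transcript around Sox1, at 84.2 ± 30.7 CPM against 4.78 (3.12). Gda, the guanine deaminase that is abundant in some forebrain neurons, had 191 ± 52.8 CPM against 20.9 and was detected in 73.3% of members. Esyt3, which encodes an extended synaptotagmin that tethers the endoplasmic reticulum to the plasma membrane, had 89.0 ± 35.0 CPM against 6.87. The members of all 12 libraries were above every reference library for each of these 3 genes. The matrix gene Lama1, a laminin chain, had 106 CPM against 13.5, and Adamts9, a matrix protease, had 98.7 against 15.1 with 22.0 CPM in the lowest library.

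Further leading genes encode receptors, kinases and regulators of Ras. Megf11, a receptor with EGF-like repeats, had 342 ± 78.4 CPM against 51.9. Prkd1, protein kinase D1, had 514 ± 121 CPM against 84.2. Rasgrf2, an exchange factor that activates Ras after calcium entry, had 655 ± 141 CPM against 131 and was found in 95.8% of members. The orphan receptor Gpr149 had 239 ± 77.9 CPM against 34.9, with every member library (139 to 400) above every reference library (30.1 to 40.3). Rasgrf2 and Ankrd34b, another leading gene, are neighbours on chromosome 13, with 294240 bases between them.

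Among the leading genes was also 1 with a known place in energy balance. Cnr1, the cannabinoid receptor of presynaptic terminals, had 129 ± 23.7 CPM in members, from 95.9 to 171, against 15.6 to 32.4 in reference nuclei (2.25). It was detected in 65.4% of members and 14.8% of reference nuclei, and every member library was above every reference library. Gm1604a and Gm1604b, both on chromosome 17, were also on the list. How far their sequences are alike, and what this did to their counts, was not tested, so their levels are uncertain.

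**Figure D2:**
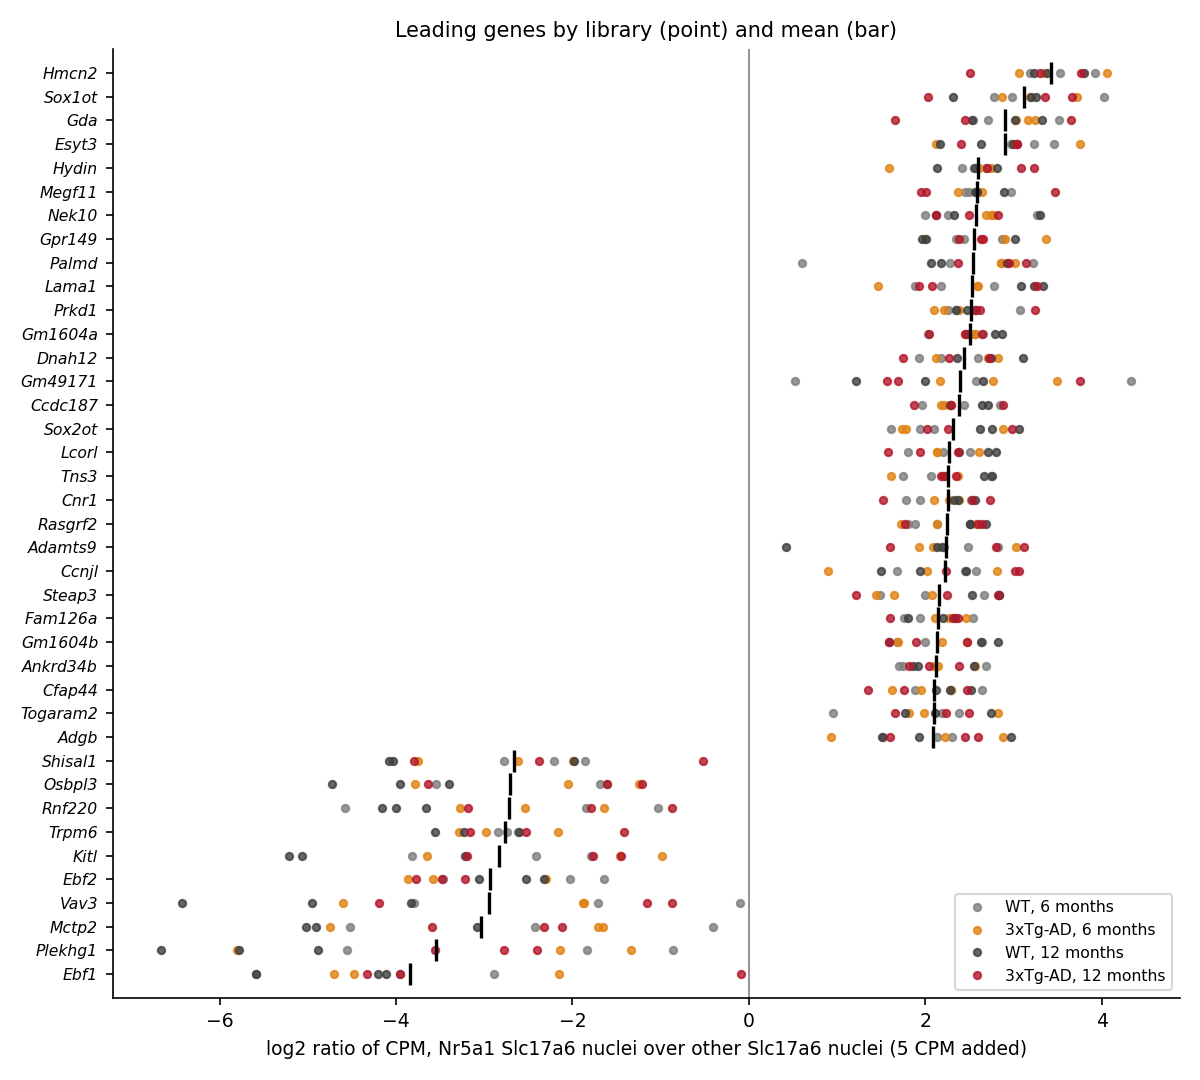
Log2 ratio of CPM of Nr5a1 Slc17a6 nuclei over other Slc17a6 nuclei for the leading genes that are reported here and the 10 lowest genes, with 5 CPM added to both. Each point is a library coloured by genotype and age, and the black bar is the mean of the 12 libraries; all 12 points lie on 1 side of 0 for every gene, and Hmcn2 has the highest mean (3.42) and Ebf1 the lowest (-3.84).

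The promoters of the leading genes were searched for a binding motif of steroidogenic factor 1, with sequences from RefSeq (GRCm38.p6, 250 bases before to 50 after the annotated start). The classical site CAAGGTCA, searched on both strands (TGACCTTG on the other), was in 0 of the 22 leading genes that had a window, and in 1.76% of the 27025 genes of the table. The shorter core AGGTCA, which is part of that site, was in 2 of the 22 (9.09%) against 18.1% of all genes. The core thus was no more frequent in these windows than in promoters at large, and these counts say nothing of sites elsewhere. Of the 10 lowest genes, 8 had a window and none held either motif. The stretches with the core are shown because they are the only matches among leading genes, each read 5′ to 3′ on the strand of the gene with the core or its complement in capitals. The first is from Cnr1 (chr4:33924244-33924273, plus strand, 8 to 3 bases before the start) and the others are from Steap3, a gene for an iron reductase (minus strand, chr1:120270298-120270327, chr1:120270359-120270388, chr1:120270366-120270395 and chr1:120270387-120270416). The last 3 stretches overlap.
Cnr1: ccgcccggcgcgTGACCTccagtgaggtcc
Steap3, nearest to the start: agggcggggctgTGACCTgcttgtctggaa
Steap3, on the strand of the gene: ggggatgacctgAGGTCAatgaccgaccgg
Steap3, next upstream: tgtgcttggggaTGACCTgaggtcaatgac
Steap3, farthest upstream: tgtgtccaccttTGACCTcggtgtgcttgg

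Of the 8923 genes found in at least 10% of reference nuclei, 510 (5.72%) were lower in members in all 12 libraries. The 10 with the lowest ratio were Ebf1, Plekhg1, Mctp2, Vav3, Ebf2, Kitl, Trpm6, Rnf220, Osbpl3 and Shisal1. Ebf1 and Ebf2 encode transcription factors of the early B cell factor family that are also used by neurons. Ebf1 had a UMI in 5.83% of members and 31.2% of reference nuclei (20.8 CPM against 206), and Ebf2 in 2.50% against 10.9%. Trpm6, a magnesium channel, had 2 UMIs in all members and 33.2 CPM in reference nuclei. Vav3, an exchange factor for small GTPases, had 183 CPM with an SD of 210 and a range of 5.64 to 710, so the level varied more between libraries than that of any leading gene named above.

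The transcription factors fixed as a list held 22 genes. Of these, 3 were higher and 7 lower in all libraries, against 1.65% and 9.63% of all genes with a UMI. In the list 14 genes were detected in at least 10% of members, and 4.84% of all genes at that share were higher in all libraries. Among those higher were Isl1, a LIM factor of ventral hypothalamic cells, with 12.7 against 1.76 CPM, and Nkx2-1, given above. Nkx2-2 (9.99 against 1.34 CPM) and Nr2f2 (52.6 against 24.5 CPM) were higher in 10 and 9 libraries. Among the lower genes were Zfhx3, with 415 against 932 CPM, Nr2f1, with 20.9 against 43.5 CPM, Tcf7l2, Lhx9 and Sim1. Bsx, Otp and Rax, factors of the arcuate and paraventricular regions and of tanycytes, had no UMI in members.

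Peptide genes were sparse. Of 12 in the list, Adcyap1 alone was higher in all libraries, while Cck, the cholecystokinin gene (2.28 against 19.3 CPM), and Nos1, the neuronal nitric oxide synthase (5.74 against 19.0 CPM), were lower in all. The shares over all genes with a UMI were 1.65% higher and 9.63% lower. Pdyn, the prodynorphin gene, was found in 8.33% of members and 1.17% of reference nuclei and was higher in 9 libraries. Tac1, the substance P precursor, was found in 12.1% against 7.72%. Bdnf, a growth factor known from these neurons, had 26.8 CPM in members and 29.5 in reference nuclei.

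Receptors for peptides and hormones differed one by one. Of 21 peptide receptor genes, Cckbr (a cholecystokinin receptor, 9.88 against 3.84 CPM) and Hcrtr2 (an orexin receptor, 77.9 against 32.8 CPM) were higher in all libraries, and 4 were lower in all. Among all genes with a UMI these shares were 1.65% and 9.63%. Oprk1, the kappa opioid receptor that dynorphin activates, had 37.1 against 11.2 CPM, with 11 libraries higher. Crhr2, a receptor for urocortins, was found in 11.7% of members and 0.955% of reference nuclei, with 10 libraries higher. Oprm1, the mu opioid receptor, had 33.2 against 90.0 CPM and was lower in all libraries.

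The list of energy-sensing genes held 12, with 2 higher in all libraries, Cnr1 among them, and none lower in all. Among all genes with a UMI the shares were 1.65% higher and 9.63% lower. Of the 12, 7 were detected in at least 10% of members, and 4.84% of all genes at that share were higher in all libraries. Lepr, the leptin receptor, had 32.2 ± 14.0 CPM in members, from 7.36 to 51.0, against 7.26 to 15.8, and was higher in 11 libraries. It was detected in 25.4% of members and 7.70% of reference nuclei. Insr, the insulin receptor, had 123 against 120 CPM, and Abcc8 and Kcnj11, which encode the channel that ATP closes in glucose-sensing cells, had 20.6 against 29.7 and 0.857 against 3.18 CPM. Mc4r, a melanocortin receptor, had 1 UMI and Ghsr, the ghrelin receptor, had none.

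None of 6 steroid receptor genes was higher or lower in every library. Esr1, the oestrogen receptor alpha, was found in 13.3% of members and 7.37% of reference nuclei, with 21.6 ± 14.8 CPM against 14.6. Pgr, the progesterone receptor, was found in 35.0% against 29.0%. Of the 18 genes that divide ventromedial neurons into types in the literature, 10 had a higher mean in members than in reference nuclei, 2 were higher in all 12 libraries (Cckbr among them) and 3 were lower in all (Nos1, Nup62cl and Cckar, the last 2 with no UMI in members). Among all genes with a UMI, 28.4% had a mean ratio above 0, 1.65% were higher and 9.63% lower in each library. These shares take in genes with no UMI in members. The median log2 ratio of the 18 was 0.11, against -0.04 over all genes detected in at least 10% of members. The sum of these 18 genes was 366 to 711 against 538 to 714 CPM.

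Of 15 genes of inhibitory receptors, 8 were higher in all 12 libraries, where the share over all genes detected in at least 10% of members was 4.84%. None was lower in all (9.63% of all genes with a UMI, 5.72% of those in at least 10% of reference nuclei). A mean ratio above 0 was seen in 11 (28.4% of all genes with a UMI, a share that takes in genes with none in members). Of the 15, 13 were detected in at least 10% of members. The median log2 ratio of the 15 was 0.56, against -0.04 over all genes detected at that share. Gabra5, the alpha 5 subunit of the GABA-A receptor, had 161 ± 28.4 CPM against 50.6, and every member library (105 to 200) was above every reference library (43.4 to 56.4). Gabra2 had 467 against 253 CPM and Gabrg1 105 against 41.4 CPM. Glra3, the alpha 3 glycine receptor subunit, had 223 ± 62.5 CPM against 81.9, so both this gene and Glra1 were higher, while Glra2 was lower on average (34.7 against 54.9 CPM) and Glrb, the shared beta subunit, was near the reference (143 against 139 CPM).

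The 17 glutamate receptor genes had 2 higher and 3 lower in all libraries, against 1.65% and 9.63% of all genes with a UMI. Of the 17, 16 were detected in at least 10% of members. Of all genes detected at that share, 4.84% were higher, and of those in at least 10% of reference nuclei, 5.72% were lower in all libraries. Grm5, a metabotropic receptor that raises calcium, had 2505 against 1263 CPM and Gria1, an AMPA receptor subunit, had 1319.7 against 699 CPM. Grin2c, an NMDA receptor subunit and 1 of the 3 lower genes, had 9.02 against 46.6 CPM.

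Several leading genes belong to the motile cilium: Hydin, Nek10, Dnah12, Cfap44, Togaram2 and Adgb. Neurons are known for primary cilia, which do not beat, while ependymal cells, which line the ventricle next to the ventromedial hypothalamus, carry many. A list of 31 genes of motile cilia was therefore drawn up after these values had been seen. In it 19 genes had a higher mean in members (28.4% of all genes with a UMI, a share that takes in genes with none in members). The median log2 ratio of the list was 0.61, against -0.04 over all genes detected in at least 10% of members. In all 12 libraries, 12 were higher (1.65% of all genes, 4.84% of those in at least 10% of members) and 1, Armc4, was lower (9.63%). Of these 12, 6 are the leading genes above, which prompted the list, so its counts and its sum restate that choice in part. The other 6 were Cfap61, Dnah2, Dnah7a, Rfx2, Rfx3 and Zbbx. Summed, the list gave 1021 to 1699 CPM in members (median 1286) and 406 to 525 CPM in reference nuclei.

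Hydin, a protein of the central apparatus, had 66.8 ± 20.3 CPM in members, from 27.1 to 108, against 5.14 to 7.89 in reference nuclei, and was found in 45.8% of members. Dnah12, an axonemal dynein heavy chain, had 41.5 ± 10.5 CPM against 3.36 and Cfap44 had 74.5 ± 20.0 against 13.1. Cfap61 (57.2 against 8.89 CPM), Zbbx (38.4 against 5.23) and the cilium factors Rfx2 (21.4 against 3.30) and Rfx3 (452 against 199) were also higher in all 12 libraries. Nek10, a kinase of motile cilia, had 171 ± 59.2 CPM, from 97.8 to 279, against 23.3.

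Other genes of the list were at or near 0. Tmem212 and Armc4 had no UMI in members, Foxj1, the master regulator of motile cilia, had 2, Ccdc153 and Dnah3 had 1 each, and Spag16 had 8.49 against 11.1 CPM. Ependymal nuclei of these libraries, 329 in all, were chosen by their UMIs of Spag16, Dnah12 and Tmem212, which are genes of this list. In these nuclei Tmem212 was at 1187, Armc4 at 661, Foxj1 at 71.6, Ccdc153 at 228, Dnah3 at 768 and Spag16 at 2878 CPM, and Hydin was at 1072 CPM. All 31 genes were higher in the ependymal nuclei than in members, but for Spag16, Dnah12 and Tmem212 this follows from that choice.

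Members differed among themselves in how many of the 30 leading genes they held. The median member had a UMI of 17.5 leading genes (quartiles 12 and 21, range 1 to 28) and the median reference nucleus of 3. In all, 189 members (78.8%) had at least 12 leading genes. These were 9 to 24 nuclei per library, and the library medians lay between 15 and 20 genes. The leading genes were ranked on these nuclei, so the gap between members and reference is not independent of the choice.

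The 53 members with 2 or more Nr5a1 UMIs had a median of 20 leading genes and 11766 UMIs, and the 187 with 1 had 16 and 10259. Fewer than 6 leading genes were found in 15 members (6.25%) from 9 libraries, and none of these had a second Nr5a1 UMI. In those 15 nuclei Vav3, one of the 10 lowest genes, was found in 9 (60.0%, against 16.4% of the other 225 members). Glra1 and Lepr, which are not leading genes, were in none. Hmcn2 was in none either, but as a leading gene it entered the choice of these nuclei. The median of these 15 nuclei was 7220 UMIs. Of the thalamic genes, Prkcd was found in 26.7% against 4.44% of the other members (268 against 22.7 CPM). Lef1 was found in 26.7% against 7.11% (240 against 57.4 CPM) and Tcf7l2 in 33.3% against 27.6% (439 against 102 CPM). What part thalamic RNA had in these 15 nuclei was not tested. Conversely, 640 reference nuclei (2.09%), 31 to 68 per library, had at least 12 leading genes without an Nr5a1 UMI, which is more nuclei than the members themselves.

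**Figure D3:**
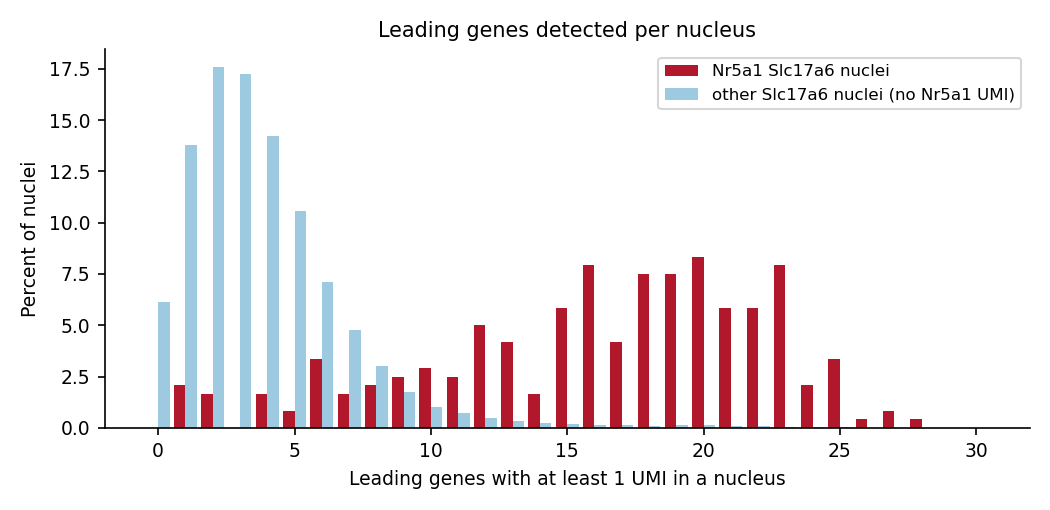
Percent of nuclei (vertical axis) by the number of the 30 leading genes with at least 1 UMI (horizontal axis), for the 240 Nr5a1 Slc17a6 nuclei and the 30680 other Slc17a6 nuclei. Members centre on a median of 17.5 genes with a small group under 6 (15 nuclei), and other nuclei centre on 3 with a tail that reaches 27.

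Splitting the members by a UMI of 1 gene gave further contrasts, all without a test as nuclei of 1 library share their source. Hmcn2 was found in 128 members and missing from 112. Members with Hmcn2 were deeper (median 11536 against 9088 UMIs), and the part of depth in the shares was not tested, so levels in CPM stand beside them. Such members also held more leading genes (median 20 against 12), of which Hmcn2 is 1, and the part of this was not tested. Members with Hmcn2 more often held Lepr (39.1% against 9.82%, 49.5 against 10.5 CPM) and Crhr2 (18.8% against 3.57%, 18.7 against 4.39 CPM). Nr2f2 differed in share (48.4% against 26.8%) but little in level (56.8 against 50.04 CPM). Members with Hmcn2 less often held Esr1 (7.03% against 20.5%, 7.25 against 37.7 CPM) and Foxp2, a forkhead factor (10.9% against 35.7%, 30.2 against 295 CPM).

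Esr1 was found in 32 members from 10 libraries, at most 6 in 1 library. Of these 32, 21.9% held Pdyn against 6.25% of the 208 without Esr1 (28.1 against 6.97 CPM), and 28.1% held Hmcn2 against 57.2% (53.3 against 114 CPM). Nr2f2 was found in 15.6% against 41.8% (14.03 against 59.9 CPM). Pgr was found in 37.5% against 34.6% (70.2 against 46.8 CPM). Median depths with and without Esr1 were 11274 and 10278 UMIs, and the median numbers of leading genes were 13 and 18. What part this had in the contrasts was not tested. Lepr was found in 61 members from all 12 libraries, of which 52.5% held Hcrtr2 and 23.0% Crhr2, against 29.1% and 7.82% of the other members (113 against 63.6 CPM and 23.3 against 8.27 CPM). Members with Lepr were deeper (median 13316 against 9924 UMIs) and held more leading genes (median 20 against 16).

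The share of nuclei that were members did not differ detectably between the groups. From the share of nuclei that met the rule alone, fewer cells of the type and fewer detected transcripts per cell cannot be told apart, and neither can how much hypothalamus each dissection took. At 6 months it was 0.131 ± 0.0236% in 3xTg-AD and 0.131 ± 0.0356% in WT mice (SD, n = 3 each; difference 0.000319 percentage points, two-sided exact permutation p = 1.0). At 12 months it was 0.118 ± 0.0344% and 0.145 ± 0.0741% (difference -0.0274, exact permutation p = 0.7). With 3 mice against 3 the smallest p is 0.1, so these designs cannot pass 0.05. Between ages the difference was 0.000435 percentage points (6 libraries each, exact permutation p = 0.991), and the change of the genotype difference with age was -0.0277 (exact permutation within ages, p = 0.62). After adjustment for these 4 tests all p were 1. As a share of excitatory Slc17a6 nuclei the 3xTg-AD libraries lay lower than WT at 6 months (0.727 against 0.887%) and higher at 12 months (0.821 against 0.763%), the reverse of the order on the other scale, and the group ranges overlapped.

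Gene levels were compared between groups on UMI counts summed over the members of each library, with the quasi-likelihood test of edgeR adjusted over all genes tested. Calls required that the adjusted p was below 0.05 and that the log2 fold change exceeded 0.2 in size. The sums were small, with 11 to 30 nuclei per library, and 3957 to 5197 genes passed the filter on low counts.

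Between genotypes at 6 months 1 of 4349 genes was called (0.023%), AC149090.1, which was lower in 3xTg-AD. It is annotated as a protein-coding gene on the unplaced scaffold JH584304.1 (GRCm38, bases 52190 to 59690, minus strand). Members of 3xTg-AD mice had 179, 116 and 66.1 CPM at 6 months and those of WT mice 383, 833 and 867 CPM. All 3xTg-AD libraries were below all WT libraries, with a log2 fold change of -2.59 ± 0.33 (SE, n = 3 against 3, edgeR adjusted p = 0.00381). Without 3xTg-AD replicate 9 the edgeR adjusted p was 0.0763.

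AC149090.1 was also lower in the reference nuclei of 3xTg-AD mice at 6 months (134 to 202 against 662 to 994 CPM, log2 fold change -2.19, edgeR adjusted p = 0.000181). It was thus not particular to the members. In members at 12 months it was at 444, 552 and 660 CPM in 3xTg-AD and 374, 175 and 467 CPM in WT mice (log2 fold change 0.70 ± 0.28, edgeR adjusted p = 0.692). The genotype difference changed between ages by 3.28 ± 0.47 on the log2 scale (edgeR adjusted p = 0.00356), the 1 gene called of 5197 tested for this change (0.0192%), and in reference nuclei the change was 2.33 with an edgeR adjusted p of 0.0759. At an unadjusted p under 0.05 there were 295 genes (5.68%), 160 (3.08%) with a positive and 135 (2.6%) with a negative change.

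At an unadjusted p under 0.05, 252 genes (5.79%) differed between genotypes at 6 months, 103 (2.37%) higher and 149 (3.43%) lower in 3xTg-AD. Next by adjusted p was Etnk2, an ethanolamine kinase named here after its values were seen, with 12.0 to 21.1 CPM in 3xTg-AD and 49.9 to 106 in WT mice (log2 fold change -2.33 ± 0.42, edgeR adjusted p = 0.0961). In reference nuclei Etnk2 was lower in 3xTg-AD by -1.23 on the log2 scale (edgeR adjusted p = 0.000986). The groups did not overlap for Etnk2. Groups failed to overlap in 11.9% of all genes tested.

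At 12 months 1 of 3957 genes was called (0.0253%), 6330411D24Rik, again lower in 3xTg-AD. It is a noncoding transcript on chromosome 4 (GRCm38, chr4:142598441-143074839, minus strand). Members of 3xTg-AD mice had 76.9, 58.8 and 82.6 CPM and those of WT mice 301, 350 and 221 CPM, with no overlap (log2 fold change -1.89 ± 0.27, edgeR adjusted p = 0.00949). The call was lost when 3xTg-AD replicate 2 (edgeR adjusted p = 0.107), 3xTg-AD replicate 6 (0.0740) or WT replicate 8 (0.105) was left out, and when all 12 libraries were fitted together (0.324). At 6 months the values were 48.7, 141 and 15.03 CPM in 3xTg-AD and 94.3, 244 and 217 CPM in WT mice, which overlapped.

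In reference nuclei 6330411D24Rik was at 85.2 to 195 CPM in 3xTg-AD and 136 to 213 CPM in WT mice at 12 months (log2 fold change -0.46, edgeR adjusted p = 0.582). Whether members and reference nuclei differed in this was not tested. At an unadjusted p under 0.05, 227 genes (5.74%) differed at 12 months, 131 (3.31%) higher and 96 (2.43%) lower in 3xTg-AD.

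Cfap54, a gene of the motile cilium list named after its values were seen, was not called but had 3xTg-AD below WT libraries at both ages. At 6 months it had 48.7 to 66.8 CPM in 3xTg-AD and 72.1 to 153 CPM in WT mice (log2 fold change -1.11 ± 0.31, edgeR adjusted p = 0.454). At 12 months it had 64.1 to 108 and 147 to 223 CPM (-1.21 ± 0.26, edgeR adjusted p = 0.231). In the far larger sums of reference nuclei at 12 months its log2 fold change was -1.68 (edgeR adjusted p = 5.14e-05). Groups failed to overlap in 11.2% of genes at 12 months.

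No gene of the thalamic list was called in any comparison, and its values are given beside the calls. Tcf7l2 had 92.1 to 280 CPM in 3xTg-AD and 22.9 to 95.9 in WT members at 12 months (log2 fold change 1.73 ± 0.47, edgeR adjusted p = 0.458), and Vav3 and Rnf220, both among the genes lowest in members, had a log2 fold change of 3.38 and 2.20 (edgeR adjusted p = 0.231 and 0.242). The thalamic sum at 12 months was 1546, 1786 and 2633 CPM in 3xTg-AD and 1203, 1500 and 1517 CPM in WT members, without overlap, and at 6 months it was 1863 to 2378 and 1663 to 3391 CPM. The median log2 fold change of the tested thalamic genes was 1.05 at 12 months (2 tested, both positive) and -0.58 at 6 months (1 of 4 positive). It was -1.12 for age (0 of 4 positive, 2 at an unadjusted p under 0.05). For the change of the genotype difference with age, where AC149090.1 was called, it was 2.87 (4 of 4 positive, 2 at an unadjusted p under 0.05). Over all genes tested the median was -0.01 at 6 months, 0.00 at 12 months, 0.01 for age and 0.00 for the change with age. All 4 genes of the list were detected. At 12 months the astrocyte sum was 132 to 637 and 252 to 846 CPM and the oligodendrocyte sum 47.0 to 162 and 51.5 to 264 CPM, in each case overlapping. What part this had in the differences was not tested. With the 15 members of under 6 leading genes left out, the numbers of called genes were 1 at 6 months, 1 at 12 months, 0 for age and 1 for the change with age, an alternative chosen after seeing the data.

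Between 12 and 6 months, with genotype as a covariate, 0 of 4789 genes were called by edgeR (0%). At an unadjusted p under 0.05 there were 231 (4.82%), of which 122 (2.55%) were higher and 109 (2.28%) lower at 12 months, and DESeq2 called 1. That gene, Hs3st5, encodes a sulfotransferase of heparan sulfate chains and is named after its values were seen. It had 265, 236 and 301 CPM in 3xTg-AD and 366, 218 and 230 CPM in WT members at 6 months. At 12 months it had 427, 419 and 502 CPM in 3xTg-AD and 498, 434 and 478 CPM in WT members. All 12-month libraries were above all 6-month libraries (log2 fold change 0.79 ± 0.15, edgeR adjusted p = 0.102), which held for 0.271% of genes in either direction. In reference nuclei the log2 fold change was -0.21 (edgeR adjusted p = 0.633), and the difference between both kinds of nuclei was not tested.

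**Figure D4:**
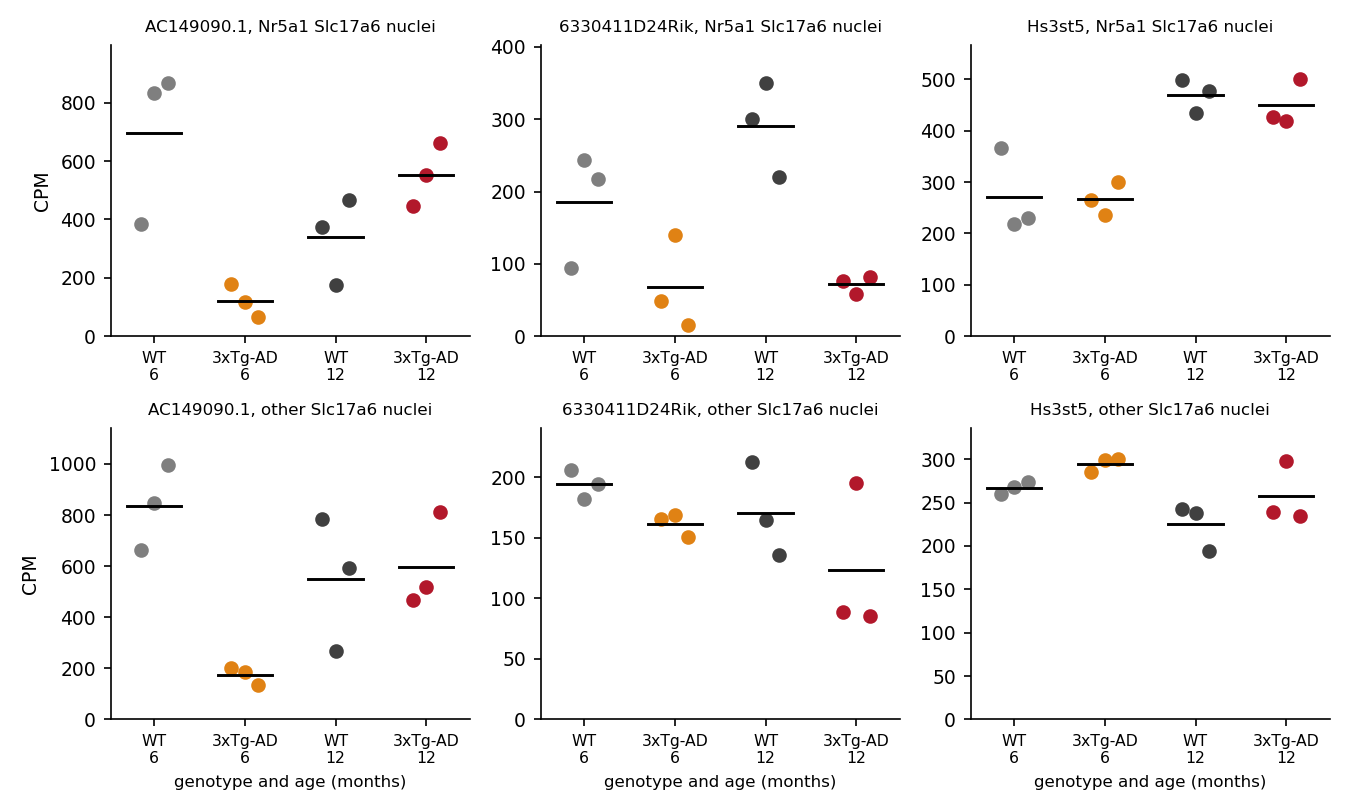
CPM (vertical axis, from 0) of AC149090.1, 6330411D24Rik and Hs3st5 per library in Nr5a1 Slc17a6 nuclei (top) and other Slc17a6 nuclei (bottom), by genotype and age in months. Points are libraries and bars are means; AC149090.1 is lowest in 3xTg-AD at 6 months in both rows, while in the top row 6330411D24Rik at 12 months lies lower in 3xTg-AD (58.8 to 82.6 CPM) than in WT and overlaps with 3xTg-AD at 6 months, and Hs3st5 lies higher at 12 months (419 to 502 CPM) than at 6 months.

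No gene of the lists was called in any of the 4 comparisons, and neither was any leading gene. Of the 30 leading genes, 28 passed the filter at 6 months, 25 at 12 months, 28 for age and 30 for the change of the genotype difference. Of the 6 ventromedial markers only Hmcn2 and Glra1 had counts enough to be tested. Hmcn2 had 87.9 to 157 CPM in 3xTg-AD and 111 to 133 CPM in WT members at 6 months (log2 fold change -0.05 ± 0.27) and 59.8 to 103 against 102 to 132 CPM at 12 months (-0.40 ± 0.28, edgeR adjusted p = 0.932). Glra1 had a log2 fold change of -0.15 ± 0.27 at 6 months and -0.06 ± 0.29 at 12 months. For comparison, the same genotype tests in the reference nuclei, whose sums were much larger, called 274 of 18054 genes at 6 months and 203 of 17808 at 12 months.

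App and Mapt, the mouse genes whose human forms the 3xTg-AD mice carry, were likewise not called. App, the amyloid precursor, had 577 to 584 CPM in 3xTg-AD and 511 to 610 CPM in WT members at 6 months (log2 fold change 0.09 ± 0.17, edgeR adjusted p = 0.962). At 12 months it had 662 to 718 and 484 to 662 CPM (0.28 ± 0.18, edgeR adjusted p = 0.898). Mapt, the gene of tau, had 278 to 400 and 262 to 400 CPM at 6 months and 308 to 387 and 344 to 406 CPM at 12 months, with log2 fold changes near 0 (-0.00 ± 0.22 and -0.01 ± 0.19). The genome used was the mouse build, so these values do not measure the human transgenes apart from the mouse genes.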

How the data were processed

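Nuclei of 12 hippocampal libraries were profiled with the 10x Genomics 3′ v3 kit, and the authors aligned reads with Cell Ranger (version 6.1.1) to the mm10 build. The deposited values are raw UMI counts per gene and nucleus, made before the ambient-RNA correction and the filters of the study. The range of total counts over the libraries is given in the report. Nuclei with 500 to 10000 genes were kept, with no doublet removal in the main results. Doublets were called with Scrublet (scanpy 1.11.5, expected rate 8%) as an alternative.

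The unit of replication was the library (1 mouse). Shares were compared by exact permutation tests. UMI counts were summed over members per library and tested with the quasi-likelihood test of edgeR 4.0.16 (R 4.3.3; TMM scaling, filterByExpr), with Benjamini-Hochberg adjustment over all genes tested, and DESeq2 1.42.0 as an alternative. Of these tests, only that of edgeR was also run on simulated data. Named genes were the leading 30 and lowest 10, called genes whose libraries did not overlap (10 per direction at most), and genes of the lists. The members and the lists were chosen with earlier results of these data known. Alternatives were other scaling, filters, thresholds, depths and left-out libraries. Some genes of the lists and groups are not reported here.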

Additional observations from a re-analysis of the deposited data

Results flagged for a closer look

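The summed level of the thalamic genes (Tcf7l2, Lef1, Prkcd and Rora) in members stood apart in 1 WT library. It was 3391 CPM at 6 months in replicate 3, which held 11 members, and the next WT library was at 1718 CPM. Of 44 sets of libraries examined in this way 1 stood out, and chance alone gives about 1 in 20.

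The genotype difference of AC149090.1 in members changed between the ages by 3.28 on the log2 scale (edgeR adjusted p = 0.00356). In the other Slc17a6 nuclei the change was 2.33 (edgeR adjusted p = 0.0759).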

How the results depend on the processing

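The share of members took the opposite sign when given as a percent of excitatory Slc17a6 nuclei, with differences of -0.160 (6 months), 0.0580 (12 months), -0.0147 (age) and 0.218 percentage points (change with age). It also did so with nuclei thinned to 2000 UMIs at 6 months (-0.0119), at 12 months (0.00815) and for the change with age (0.0201), and for age with at least 2 Nr5a1 UMIs (-0.00936) or doublets left out (-0.00592). Leaving out 1 library gave -0.0198 to 0.0140 at 6 months, -0.0640 to 0.0101 at 12 months, -0.0173 to 0.0123 for age and -0.0643 to 0.00973 for the change with age. No difference in share passed 0.05 in the main test. With no filter on low counts 28, 49, 22 and 33 genes were called at 6 months, at 12 months, for age and for the change with age. With doublets left out 2 were called at 6 months, with all libraries in 1 fit 0 at 12 months, and with DESeq2 1 for age. Leaving out 1 library gave 0 to 3 calls at 6 months (3 without WT replicate 3, 0 without 3xTg-AD replicate 9), 0 to 36 at 12 months (36 without 3xTg-AD replicate 10, 6 without WT replicate 4, 0 without 3xTg-AD replicates 2 or 6 or WT replicate 8), 0 to 1 for age (1 without WT replicate 3 or 3xTg-AD replicate 5) and 1 to 2 for the change with age (2 without 3xTg-AD replicate 5 or WT replicate 8). The cause was not tested. Hs3st5 passed the threshold with DESeq2, with no filter and without WT replicate 3. With members of at least 2 Nr5a1 UMIs, 15 of the 30 leading genes were again among the 30 with the highest ratio. No paired analysis was possible because the replicate numbers are not shared between groups. Not run were a split of members by Esr1 between libraries (at most 6 such members per library) and gene tests on members with at least 2 Nr5a1 UMIs (2 to 8 per library). At 11 to 30 members per library, low genes could not be tested.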
